A study of Triticum aestivum with 8 samples.

Results

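Leaf transcripts were compared between 2 cultivars of bread wheat (Triticum aestivum), C306 and WL711, in plants that had been watered throughout. The comparison used every array labelled C306 control or WL711 control, 4 of the 8 arrays of the study, and all 61179 probe sets on the array that are not Affymetrix controls. C306 control held 2 biological replicates of cultivar C306 and WL711 control held 2 of cultivar WL711. All plants were labelled as 48 days old, leaf was the labelled tissue, and the labels named no transgene, mutation or further treatment. The other 4 arrays came from plants of the same cultivars without water for 21 days, and served to read the cultivar difference again under drought. They also entered the estimate of spread behind the watered comparison, except where a fit on the 4 watered arrays alone is named. The labels do not say whether the 2 replicates of a group came from separate plants or how many plants were pooled, so the p-values below measure only the spread between these samples.

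C306 is an Indian wheat known for tolerating drought, and WL711 is one known for suffering from it, so a comparison in watered plants asks how their leaf transcripts differ before any stress. Bread wheat carries several related subgenomes, and most genes are present as a set of similar copies called homoeologs. An Affymetrix probe set is a group of short oligonucleotides that together report one transcript or a few similar ones. RNA that binds it was measured in whole leaves, where fewer cells of a type and less RNA per cell cannot be told apart. Fewer transcripts and a poorer match of a cultivar's sequence to the oligonucleotides cannot be told apart either.

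The values are centred log2 signals: each probe set has a median of 0 over the 8 arrays. They give differences between arrays and no level, so leaf identity could not be checked against marker genes. A difference is the C306 mean minus the WL711 mean, where 1 unit is a 2-fold difference in signal. SE is the moderated standard error of limma, fitted over all 8 arrays, and passing means a p under 0.05 after Benjamini-Hochberg adjustment over all 61179.

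Among genes with a name, C306 leaves gave more signal for the zinc finger gene WZF1, the xylanase inhibitor gene XIP-I, the fructan exohydrolase gene 1-FEH and 1 probe set of the ribosomal protein gene RPS29. They gave less signal for lgul of methylglyoxal detoxification, the peroxidase gene TaPrx1, the histone gene wcH2B-8, the gibberellin 20-oxidase genes Ta20ox1D and Ta20ox1B, the glycolytic gene Pgk-1 and an amylase/trypsin inhibitor gene. Named differences downwards ranged from -1.39 to -0.69, and those upwards from 1.04 to 4.03. The lower calls were held less firmly. Each of them was lost in 5 to 16 of 18 alternative settings, and each higher call in at most 1. Genes known only by number ranged more widely on the probe sets that stood for them, up to 6.77 for LOC543418, higher in C306, and down to -7.68 for LOC780634, lower in C306.

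Of the 61179 probe sets, 6714 passed, which is 11.0%. Of these, 4080 were higher in C306 (6.67% of those tested) and 2634 were lower (4.31%). An unadjusted p under 0.05 was found for 17598 (28.8%). Higher calls had a median difference of 1.03, and lower calls one of -0.81. The split leaned further towards C306 among larger differences: 2137 calls were higher by at least 1 and 834 lower, and 629 against 266 differed by at least 2. Among the most extreme it was even, with 35 higher and 36 lower by at least 5. For all 6714 probe sets the 2 C306 arrays lay on one side of the 2 WL711 arrays. That held for 34266 of all probe sets (56.0%), so separation alone says little.

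**Figure D1:**
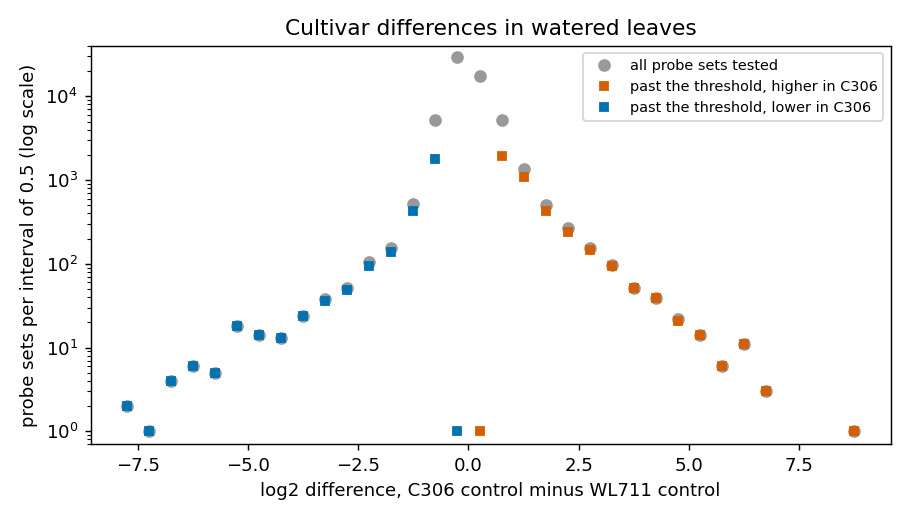
Number of probe sets (log scale) in each interval of 0.5 of the log2 difference, C306 control minus WL711 control, for all probe sets tested and for those past the threshold. Calls of at least 2 number 629 on the C306 side and 266 on the WL711 side, while calls of at least 5 number 35 and 36.

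Array quality moved with part of these counts. Centred values had an interquartile range of 0.25 and 0.24 on the C306 control arrays, and 0.48 and 0.30 on the WL711 control arrays (replicates 1 and 2). Actin and GAPDH controls have probe sets for the 3' and the 5' end of the transcript. The 3' minus 5' value for actin was -0.11 and 0.26 in watered C306, and 0.42 and 0.27 in watered WL711. For GAPDH it was 0.20 and -0.055 in watered C306, and -0.091 and 0.029 in watered WL711. The part of these in the differences was not tested. Hybridisation controls, spiked in to follow the hybridisation step, had means of 0.039 and -0.98 in watered C306, and of -0.76 and 0.073 in watered WL711, so each cultivar had 1 low array. Poly-A controls, spiked in to follow labelling, had means of 0.60 and 0.52 in watered C306, and of -0.68 and -0.12 in watered WL711. They parted the cultivars on the watered arrays and not on the drought arrays, where their means were -0.055 and -0.026 in C306, and 0.24 and -0.38 in WL711. With the poly-A mean as a covariate over the 8 arrays, a setting added after the data were seen, 795 probe sets passed, 489 higher and 306 lower, of which 722 were also among the 6714. The part of labelling in the differences was not tested otherwise. Between the 2 arrays with hybridisation controls near 0, the median difference was 0.95 for the higher calls and -0.79 for the lower ones. Between the 2 arrays with low controls it was 1.12 and -0.87. Over all probe sets these medians were -0.051 and -0.072, and since the calls were chosen on the same 4 arrays their medians are a description only. Single arrays mattered to the count. It fell when either C306 control array or WL711 control replicate 1 was dropped, and rose when WL711 control replicate 2 was. It also fell when any of the drought arrays was dropped, which enter this comparison only through the estimate of spread. A fit on the 4 watered arrays alone gave 2965 (4.85%).

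A gene could be assigned to 1273 probe sets, through the platform's annotation, which made 771 genes. No gene was listed for 59906 and several for none. A name other than a LOC number was found for 101 genes. One probe set stood for each gene, by a fixed order of probe set types. On these, 120 of 771 genes passed (15.6%), 81 higher in C306 and 39 lower, with median differences of 1.14 and -0.86. Of the 101 genes with a name, 11 passed (10.9%), 4 higher and 7 lower, a share near that of all probe sets. The gene lists below hold 3 to 8 genes each, so 0 or 1 call in a list cannot be told from these shares. With C306 control replicate 1 dropped 69 annotated genes passed, with its replicate 2 dropped 72, with WL711 control replicate 1 dropped 61, and with the poly-A covariate 21.

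Regulators and hormone enzymes are taken first. WZF1 encodes a zinc finger protein, a kind that binds DNA. Its signal was 2.02 and 1.47 on the C306 control arrays, and -1.95 and -2.63 on the WL711 control arrays. The cultivars were far apart compared with their replicates, a difference of 4.03 (SE 0.26, limma adjusted p = 4.24e-05). It passed under all 18 alternative settings, between 3.57 and 4.45.

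Gibberellin 20-oxidases make precursors of active gibberellins, the hormones of stem and leaf elongation, and the annotation names 3 of them in wheat. Ta20ox1D read 0.04 and -0.14 in C306, and 0.67 and 0.80 in WL711. Ta20ox1B read -0.07 and -0.03 in C306, and 0.70 and 0.58 in WL711. Both separated the cultivars in the same direction, with differences of -0.79 (SE 0.16, limma adjusted p = 0.0173) and -0.69 (SE 0.16, adjusted p = 0.0304). The remaining gene, Ta20ox1A, overlapped between cultivars, with 0.06 and -0.31 in C306, and -0.26 and 0.23 in WL711, and a difference of -0.11 (SE 0.20). The call was lost in 5 of 18 settings for Ta20ox1D and in 10 of 18 for Ta20ox1B, among them a further quantile normalization. A further probe set of Ta20ox1D read -0.55 and did not pass (adjusted p = 0.0732). The list held 2 lower genes of 3, where 39 of all 771 genes and 4.31% of all probe sets were lower, and a median of -0.69, beside a median of -0.078 over all probe sets. The 3 names differ only in a last letter, A, B or D. If they are homoeologs, their probe sets may read the same transcripts, and 2 of 3 is no count of independent genes.

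Defence genes were represented by 8 named members, of which 1 passed, where 15.6% of all 771 genes did. XIP-I encodes an inhibitor of xylanases, enzymes that fungi use to open plant cell walls. Its signal was 0.75 and 0.72 in C306, and -0.78 and -1.78 in WL711, a difference of 2.01 (SE 0.31, limma adjusted p = 0.00554). Both of its probe sets passed, the other at 2.07, and the call held under all 18 settings. TaGlu1a, a beta-glucosidase that releases defence compounds called benzoxazinoids from their sugar conjugates, read 0.29 and 0.76 in C306, and -1.78 and -0.29 in WL711. These arrays did not overlap, yet the difference of 1.56 did not pass (SE 0.71, adjusted p = 0.184). The thaumatin-like gene PR5 read -0.21 and -1.15 in C306, and 0.21 and -1.05 in WL711, with overlapping arrays. The wheat germ agglutinin gene WGA2 and the 4 thionin genes, which encode small antimicrobial peptides, stood between -0.42 and -0.06. The median of the list was -0.19.

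The serpins and amylase inhibitors, proteins best known from the grain where they block proteases and insect amylases, all stood below 0 for their representative probe sets. Of 7 genes 1 passed, where 15.6% of all 771 genes did. This was ATI (LOC543286), whose listed name stands for an inhibitor of amylase and trypsin. It read 0.05 and -0.29 in C306, and 0.81 and 0.45 in WL711, a difference of -0.75 at the edge of the threshold (SE 0.20, limma adjusted p = 0.04999). The call was lost in 16 of 18 settings, so it is held weakly. The other ATI (LOC543281) read -0.14, the amylase inhibitor gene WMAI-1 -0.33, and the 4 serpins between -0.56 and -0.18. The list median was -0.33, beside -0.078 over all probe sets. Part of this rested on WL711 control replicate 1. Serpin-Z2B read 0.99 on that array and -0.05 on replicate 2, and ATI (LOC543281) read 0.69 and -0.02. In C306 they read -0.23 and 0.05, and 0.37 and 0.02, so their arrays overlapped between cultivars, while those of Serpin-Z1C and Serpin-Z2A did not. Of the 8 gliadin and glutenin genes, which encode the gluten proteins of the grain, none passed on its representative probe set, and their median was -0.05, with 5 of 8 above 0 after quantile normalization once more. A further probe set of the low molecular weight glutenin gene Glu-D3 was lower in C306, at -0.85 (SE 0.16, adjusted p = 0.0146).

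In carbohydrate metabolism the calls upwards were those of fructan exohydrolases. Fructans are soluble fructose polymers that wheat stores in stems and leaf bases, and exohydrolases free fructose from them. 1-FEH read 0.32 and 0.19 in C306, and -0.77 and -0.78 in WL711, a difference of 1.04 (SE 0.16, limma adjusted p = 0.00564) with replicates close together. The call was lost with the poly-A covariate alone of the 18 settings (adjusted p = 0.124). For 6-FEH, 2 of 3 probe sets passed. One read 1.48 and 1.25 in C306, and -2.91 and -1.67 in WL711, a difference of 3.65 (SE 0.52, adjusted p = 0.00391), and another differed by 2.43 (SE 0.38, adjusted p = 0.00604). The probe set that stood for the gene by the fixed order was not among them, at -0.29 (SE 0.16). The invertase gene IVR1 read -0.22 and did not pass.

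Of the starch genes, 0 of 4 passed. The granule-bound starch synthase gene GBSS-I read -0.41 and the beta-amylase gene BMY1 -0.48, and both subunits of ADP-glucose pyrophosphorylase, AGA.1 and AGP-S, lay near 0 at -0.07 and -0.0021. Among 5 genes of glycolysis and hexose phosphates, 1 passed, where 15.6% of all 771 genes did. This was Pgk-1, for phosphoglycerate kinase, as lower. It read -0.19 and -0.21 in C306, and 0.57 and 0.52 in WL711, a difference of -0.74 (SE 0.17, limma adjusted p = 0.0260) that was lost in 7 of 18 settings. The phosphomannomutase gene TaPMM at -0.62 and the fructose bisphosphatase gene FBP at -0.49 did not pass. The phosphofructokinase gene PFK stood at -0.05 and the dehydrogenase gene GAPN at -0.15. The list median was -0.49 on representative probe sets, and on these its 5 genes also stood below 0 after either rescaling of the arrays. A further probe set of TaPMM read 0.27 and did not pass.

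Redox and detoxification genes held 2 lower calls of 6, where 39 of all 771 genes and 4.31% of all probe sets were lower. The gene lgul encodes lactoylglutathione lyase, which clears the toxic by-product methylglyoxal with glutathione. It read -0.56 and -0.65 in C306, and 0.56 and 1.01 in WL711, a difference of -1.39 (SE 0.29, limma adjusted p = 0.0210). A further probe set differed by -1.29 (SE 0.20, adjusted p = 0.00528). TaPrx1 read -0.22 and -0.34 in C306, and 0.55 and 0.65 in WL711, a difference of -0.88 (SE 0.20, adjusted p = 0.0260). Its 3 other probe sets pointed the same way without passing. GSTZ1, a glutathione transferase of the zeta class, read 0.57 (SE 0.16, adjusted p = 0.0535), and passed as higher when arrays were shifted to one median. The catalase gene CAT1 stood at -0.08, PER1 at -0.16, and HGGT, an enzyme of vitamin E synthesis, at 0.03. Calls for lgul and TaPrx1 were lost in 6 and 7 of 18 settings.

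Photosynthesis genes did not pass on their representative probe sets, 0 of 6, with a median of -0.15. Trx-M, a chloroplast thioredoxin that activates carbon fixation enzymes in the light, came nearest to the threshold. It read -0.12 and -0.30 in C306, and 0.30 and 0.26 in WL711, a difference of -0.49 (SE 0.16, limma adjusted p = 0.0848). Differences were smaller for the cytochrome complex gene petC, PsbP and PsbO of the oxygen-evolving complex, and PRK, for phosphoribulokinase, between -0.22 and -0.03, and rbcl stood at -0.30. After either rescaling of the arrays 1 of the 6 lay above 0. Of the 28 probe sets annotated as rbcl, the large subunit of Rubisco, 5 passed, all lower in C306, between -1.61 and -0.81, where 11.0% of all probe sets passed and 4.31% were lower. The probe set with the largest difference read -0.16 and -0.55 in C306, and 1.38 and 1.13 in WL711, while others of the same gene ranged up to 0.48. These probe sets share a chloroplast transcript and are no independent measures of it. A further probe set of PsbP passed at -0.73, while the representative one read -0.03.

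Among genes of chromatin and growth, the histone H2B gene wcH2B-8 was lower in C306. It was the 1 call among 5 histone genes, where 15.6% of all 771 genes passed. It read -0.47 and -0.06 in C306, and 0.73 and 0.47 in WL711, a difference of -0.86 (SE 0.18, limma adjusted p = 0.0218), lost in 6 of 18 settings. Of its 7 probe sets 2 passed, and the others reached up to 0.08. The other 4 histone genes, wcH2B-6, H2A-2, H2A-3 and H2A-9, did not pass and stood between -0.17 and 0.44. Of the 6 tubulin genes, whose products build microtubules, 0 passed. They had a median of 0.46, and tubb2 was highest, at 0.80 (SE 0.55), followed by tubb1 at 0.76 (SE 0.44). Both rested on 1 low array: tubb2 read 0.58 and 0.40 in C306, and -1.08 and 0.46 in WL711.

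Translation genes held 1 higher call of 6, where 15.6% of all 771 genes passed. RPS29, a protein of the small ribosomal subunit, read 1.89 and 0.99 in C306, and -0.95 and -2.15 in WL711, a difference of 2.99 (SE 0.47, limma adjusted p = 0.00586). A further probe set gave 0.36 (SE 0.16), so those of RPS29 differed in size by more than their errors. With the poly-A covariate the RPS29 call was lost (adjusted p = 0.0583). RPL9 and the initiation factor genes eIF4E, Eif4B and eIF-2-beta, with the cap-binding protein gene NCBP, stood between -0.10 and 0.19. Of 6 genes of adenine and methyl group recycling 0 passed. The highest was SAHH, for S-adenosylhomocysteine hydrolase, which read -0.20 and 0.66 in C306, and -0.82 and -0.46 in WL711, a difference of 0.87 (SE 0.28, adjusted p = 0.0846).

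Dehydrins and LEA proteins, which protect cell contents in drying tissue, gave no call between these watered cultivars, where 15.6% of all 771 genes passed. With 5 genes, 0 calls cannot be told from that share. Of 5 genes 0 passed, and their differences ran from -0.23 for EM to 0.25 for LEA1, with COR410 at -0.16 (SE 0.16), Rab15 at 0.05 (SE 0.28) and EMH2 at 0.14 (SE 0.15). Of 3 transport protein genes 0 passed: the plasma membrane proton pump gene ha1 stood at 0.09, the calcium channel gene TPC1 at 0.24 and the malate channel gene TaALMT1 at -0.02.

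**Figure D2:**
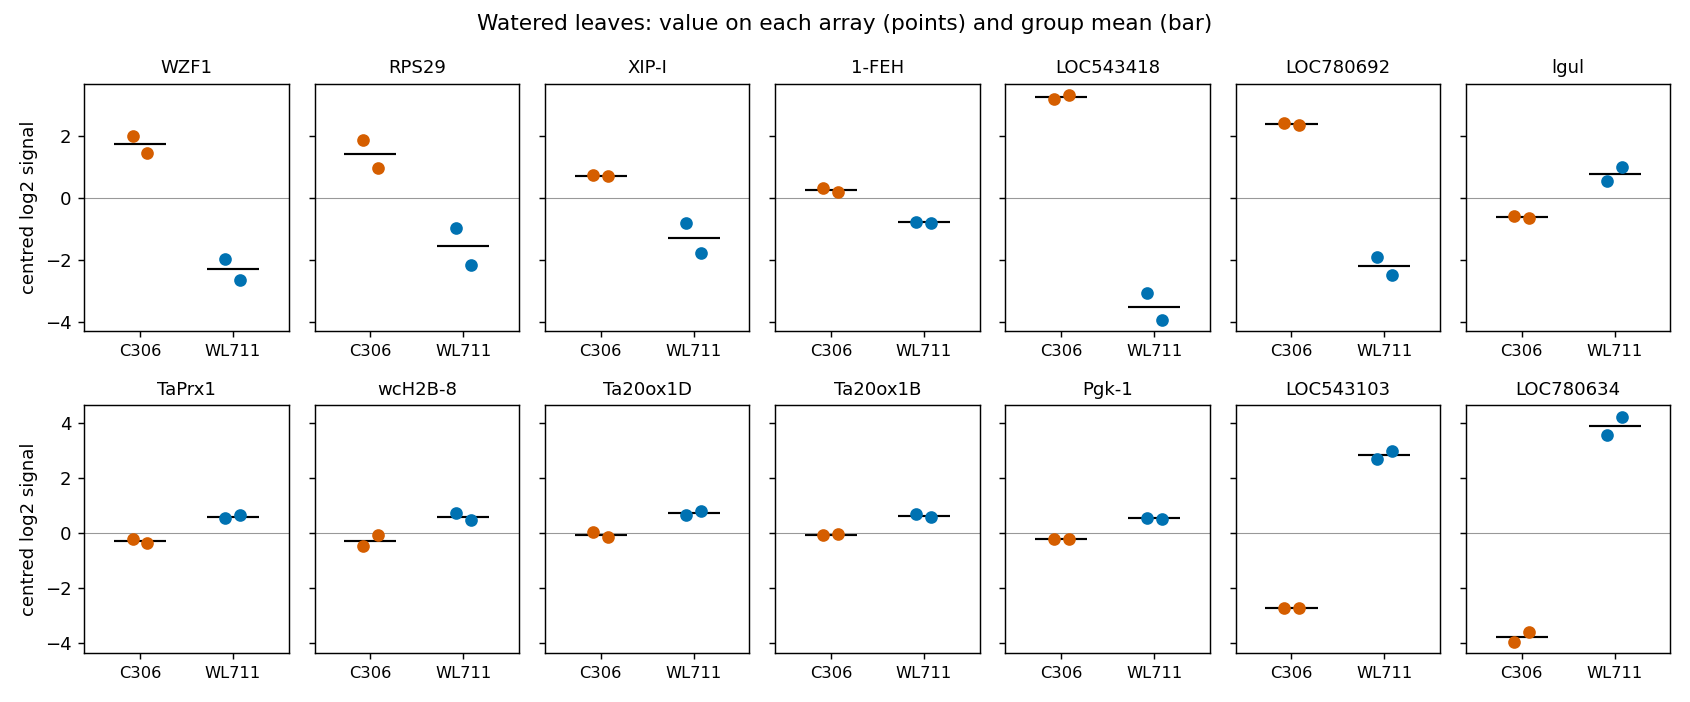
Centred log2 signal on each watered array (points; bar, mean of 2) for 14 genes, C306 left and WL711 right in each panel. In every panel both C306 points lie on one side of both WL711 points, as for all 6714 probe sets that passed. The gaps range from under 1 unit for Pgk-1 and the gibberellin 20-oxidases to over 7 for LOC780634.

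Genes that the tables list only by number held the extremes among annotated genes. No role is given for them here, because the tables name none. LOC543418 read 3.20 and 3.34 in C306, and -3.07 and -3.94 in WL711, a difference of 6.77 (SE 0.27, limma adjusted p = 3.21e-06). A further one of its probe sets read -0.41 and did not pass. LOC780692 read 2.44 and 2.37 in C306, and -1.90 and -2.48 in WL711, a difference of 4.59 (SE 0.21). LOC543111 read 1.85 and 2.06 in C306, and -1.77 and -1.88 in WL711. That was a difference of 3.78 with the small SE of 0.15, and 2 of its 3 probe sets passed. The remaining one pointed the other way, at -0.31, and did not pass.

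The other genes among the 10 highest were LOC542773, LOC100037634, LOC542837, LOC542847 and LOC100049023, beside WZF1 and RPS29, with differences from 2.99 to 4.89. LOC542773 had the widest replicate gap of them, at 2.37 and -0.30 in C306, and -5.34 and -2.36 in WL711. Its difference of 4.89 carried an SE of 1.08, and its call was lost in 7 of 18 settings. On the drought arrays alone it did not pass and read -1.77, and on the 4 watered arrays alone it did not pass either (limma adjusted p = 0.0547). A further probe set of LOC100037634 read 0.79 and did not pass (limma adjusted p = 0.0683).

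Lower in C306 were all 3 probe sets of LOC780634, by -7.68 (SE 0.23), -7.35 (SE 0.21) and -6.88 (SE 0.25). On the first of these the arrays read -3.94 and -3.59 in C306, and 3.59 and 4.24 in WL711. LOC780641 read -2.68 and -2.89 in C306, and 2.68 and 3.76 in WL711, a difference of -6.0 (SE 0.31). LOC543103 read -2.71 and -2.72 in C306, and 2.71 and 2.98 in WL711, a difference of -5.55 (SE 0.16). These 3 genes passed under all 18 settings. The lowest probe set with a gene was Ta.30640.1.S1_at of LOC100037541, which read -3.27 and -5.33 in C306, and 3.41 and 3.55 in WL711, a difference of -7.78 (SE 0.53, limma adjusted p = 6.11e-05). By contrast, the probe set that stood for that gene by the fixed order read -0.47 (SE 0.26) and did not pass, so those of LOC100037541 differed widely.

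LOC543150, LOC543248, LOC100037531, LOC543256, LOC542836, LOC100037645 and LOC543268 followed, with differences from -3.97 to -1.57. The identifiers of LOC100037531, LOC100037645 and LOC543268 belong to one sequence cluster of the array, so their probe sets may read the same transcripts. All 5 probe sets of these 3 genes were lower in C306, between -3.06 and -1.55.

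Agreement between probe sets of one gene was examined next. Of 298 genes with at least 2 probe sets, 79 had a call, where 199 of 1273 single probe sets with a gene passed (15.6%). Several probe sets give a gene several chances of a call. In 21 of the 79 genes every probe set passed in one direction, 15 higher and 6 lower in C306. In the other 58 some passed and some did not, and 0 genes held calls in both directions. XIP-I and lgul were among the 21, and so was LOC780670, with 3 probe sets between 2.10 and 2.17. The rest of the 15 were LOC542773, LOC542847, LOC606326, LOC780636, LOC543338, LOC780672, LOC542799, LOC543038, LOC606370, LOC542934, LOC542913, LOC606335 and LOC543446, and the rest of the 6 were LOC780634, LOC100037531, LOC100037645, LOC542880 and LOC543352. Of 81 further probe sets of genes whose representative passed, 64 had the same sign and 36 passed with it, while 17 had the opposite sign and none of these passed. Identifiers that share a cluster number were also compared over the whole array. Among clusters of the Ta identifiers with at least 2 calls, 437 held only higher calls, 145 only lower ones and 34 both (5.52% of 616). Many of these probe sets share oligonucleotides, so agreement among them is no independent check.

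**Figure D3:**
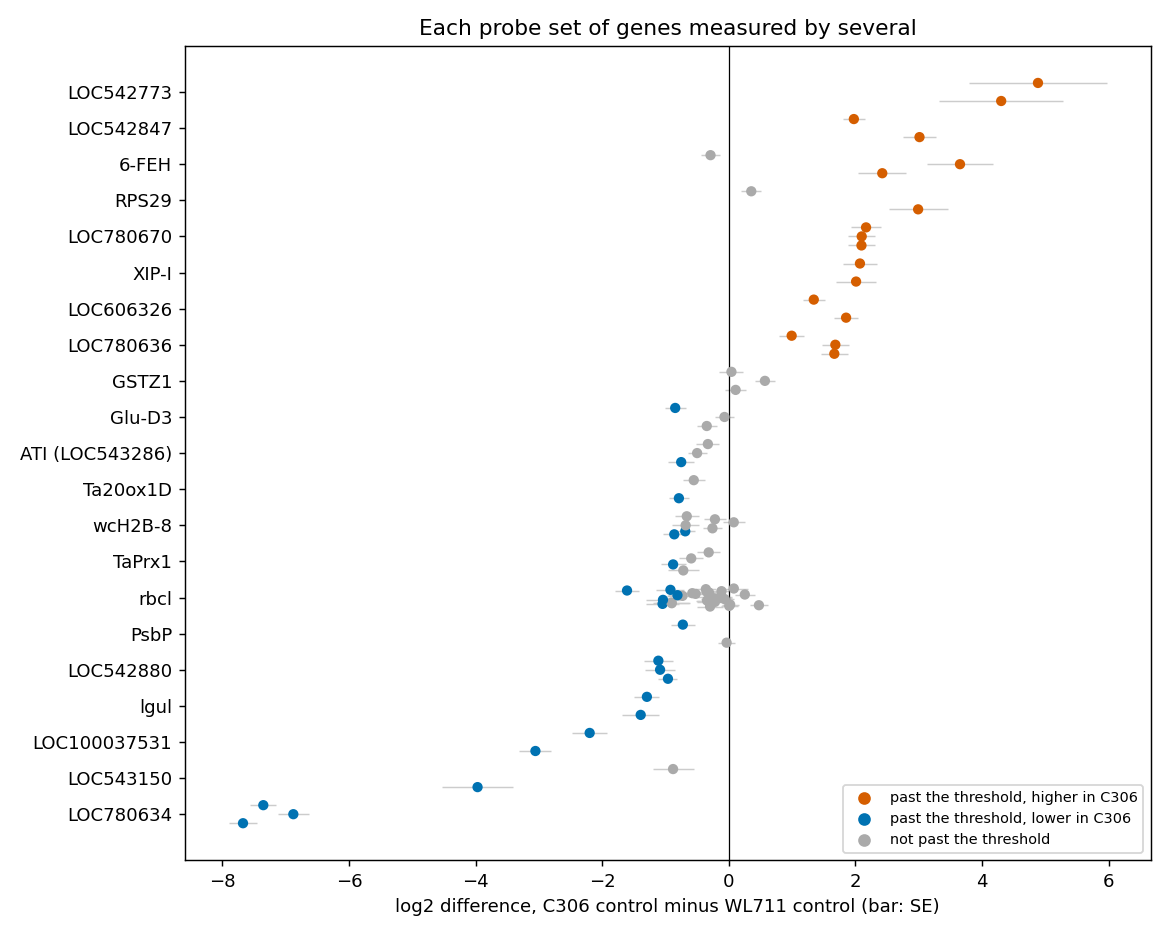
Log2 difference, C306 control minus WL711 control, of each probe set (points; bar, SE) for 21 genes measured by several probe sets, coloured by direction where past the threshold. The 3 probe sets of LOC780634 lie together near -7, while those of 6-FEH spread from -0.29 to 3.65.

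Identifiers on this array begin with Ta or with TaAffx, and the cultivar difference was split unevenly between them. Of 31438 probe sets beginning with Ta, 4343 passed (13.8%), 3099 higher and 1244 lower, so 71.4% of the calls were higher in C306. Of 29677 beginning with TaAffx, 2369 passed (7.98%), 981 higher and 1388 lower, so 41.4% were higher. The median difference was 0.029 for the Ta group and -0.16 for the TaAffx group. Leaving out each of the 4 arrays in turn, it stayed between 0.013 and 0.063 for Ta, and between -0.18 and -0.11 for TaAffx. Among differences of at least 1, called or not, 75.1% of the Ta group and 66.6% of the TaAffx group were higher in C306. By probe set type, 78.2% of the 468 calls ending in _a_at were higher in C306, and 57.9% of the 4861 plain ones.

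Among probe sets without a gene, TaAffx.113846.1.S1_s_at had the largest difference. It read 4.25 and 4.40 in C306, and -4.29 and -4.30 in WL711, so replicates lay within 0.2 while the cultivars lay 8.61 apart (SE 0.16, limma adjusted p = 2.58e-07). At the other end, TaAffx.27775.1.S1_at read -3.38 and -3.31 in C306, and 3.37 and 3.53 in WL711, a difference of -6.79 (SE 0.18).

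The same probe sets were then read on the 4 drought arrays, with watered and drought arrays fitted apart. The watered arrays alone gave 2052 probe sets higher in C306 and 913 lower. On the drought arrays 4772 probe sets passed (7.80%), 2870 of them higher in C306 (4.69%) and 1902 lower (3.11%). Of the 2052 higher in watered C306, 1142 also passed as higher on the drought arrays, 55.7% of the first list and 39.8% of the second. Of the 913 lower, 558 passed again, 61.1% and 29.3%. Opposite calls were made for 11 and 10. The sign alone was kept by 1909 of 2052 (93.0%, where 41.1% of all probe sets have that sign) and by 854 of 913 (93.5%, against 58.9%).

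The share that passed again grew with the size of the watered difference. It was 80.1% of the 612 probe sets higher by at least 2, and 92.4% of the 92 higher by at least 4. For lower ones it was 80.8% of 265 and 90.5% of 63. All 15 higher and all 13 lower by at least 6 passed again. The number of calls on the drought arrays fell when 1 of them was left out, to 1247 and 2048 for C306 drought replicates 1 and 2, to 2032 and 1873 for WL711 drought replicates 1 and 2, and to 1676 with the hybridisation control covariate.

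Several named genes differed in the same direction under both waterings. XIP-I differed by 2.26 in droughted leaves and 2.01 in watered leaves, lgul by -2.05 and -1.39, TaPrx1 by -1.02 and -0.88, Pgk-1 by -0.87 and -0.74, and 1-FEH by 0.75 and 1.04, in the same order. RPS29 differed by 1.85 in droughted leaves and 2.99 in watered leaves. All 6 passed on the drought arrays alone, with limma adjusted p from 0.0038 to 0.049. For WZF1 the difference was 2.80 in droughted leaves and 4.03 in watered leaves. The gibberellin 20-oxidase genes, at -0.25 for Ta20ox1D and -0.19 for Ta20ox1B, wcH2B-8 at -0.34 and ATI (LOC543286) at -0.41 did not pass on the drought arrays. Nor did the difference between waterings pass for any of these, with adjusted p from 0.31 to 0.91, so none is shown to be particular to watered leaves. The watered calls used the spread of all 8 arrays. On the 4 watered arrays alone, those that did not pass included wcH2B-8, Ta20ox1D (limma adjusted p = 0.0610), Ta20ox1B (0.0778), ATI (LOC543286) (0.108) and Pgk-1 (0.0623). One 6-FEH probe set differed by 0.80 in droughted leaves and 3.65 in watered leaves, a change of -2.85 (SE 0.74) that did not pass either (adjusted p = 0.256). Another differed by -0.71 in droughted leaves and 2.43 in watered leaves, a change of -3.14 (SE 0.54, adjusted p = 0.113) that missed the threshold as well. Of 56 annotated genes higher on the watered arrays alone 28 passed again, and of 16 lower ones 8.

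**Figure D4:**
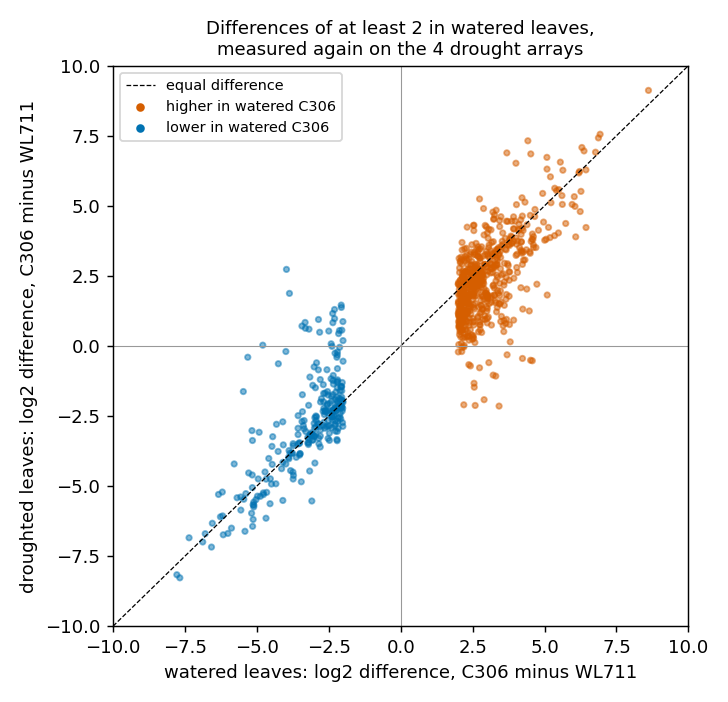
Log2 difference, C306 minus WL711, on the 4 watered arrays (x axis) and on the 4 drought arrays (y axis) for probe sets that passed on the watered arrays alone with a difference of at least 2. Most points lie near the dashed line of equal difference, with 592 of 612 higher and 243 of 265 lower ones on the same side of 0 under drought.

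A direct test asked where the cultivar difference itself changed with watering. It passed for 25 of 61179 probe sets (0.0409%), and 5987 had an unadjusted p under 0.05 (9.79%). With the poly-A covariate it passed in limma for 0, and 3756 had an unadjusted p under 0.05. Of the 25, 20 were also calls in watered leaves, 7 higher and 13 lower in C306, and for 13 of the 20 the sign was turned in droughted leaves. It hung on single arrays: with 1 array dropped the count was 199 (C306 control replicate 2), 46 (C306 drought replicate 2), 2 and 15 (WL711 control replicates 1 and 2), or 9 and 4 (WL711 drought replicates 1 and 2). The annotated genes among the 25 were LOC543248, LOC543150 and LOC543440, singled out after their values were seen.

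LOC543248 carried a low signal in watered C306 alone. Under drought it read 0.22 and 0.48 in C306, and -0.50 and -0.22 in WL711. With water it read -2.80 and -2.74 in C306, and 0.58 and 0.74 in WL711, a difference of -3.43 (SE 0.17, limma adjusted p = 1.00e-05). LOC543440 carried a low signal in watered WL711 alone. Under drought it lay at 0.10 and -0.17 in C306, and 0.11 and -0.10 in WL711, where the cultivars overlapped. With water it lay at 0.81 and 0.69 in C306, and -1.55 and -1.35 in WL711, a difference of 2.20 (SE 0.17). LOC543150 read 1.78 and 0.52 in droughted C306, and -1.55 and -1.62 in droughted WL711. It read -2.06 and -0.52 in watered C306, and 3.23 and 2.14 in watered WL711, a difference of -3.97 (SE 0.56), while its other probe set read -0.88 and did not pass.

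**Figure D5:**
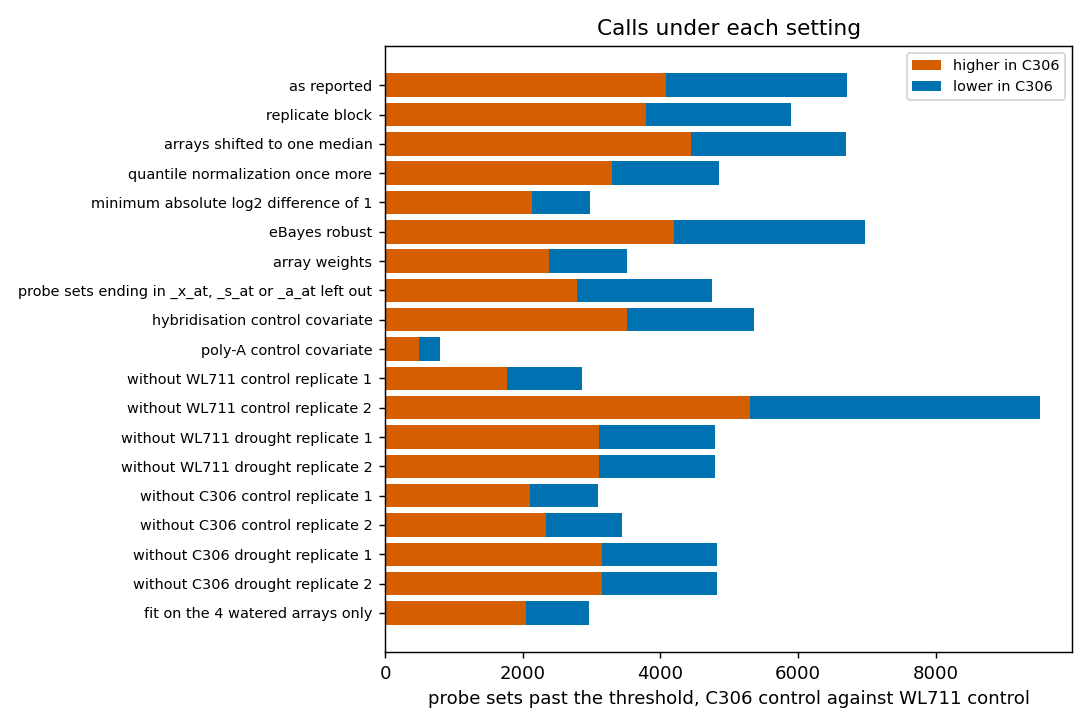
Probe sets past the threshold for C306 control against WL711 control under each setting, bars split into higher (orange) and lower (blue) in C306. The count is 6714 as reported and ranges from 795 with the poly-A covariate to 9509 without WL711 control replicate 2, and higher calls outnumber lower ones in each setting.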

How the data were processed

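Leaf RNA of 8 samples was hybridised to an Affymetrix wheat array. Per the submitters' processing notes the authors used RMA (no version is given), a method that corrects background, equalises the distributions of arrays and summarises each probe set as a log2 value. The deposited log2 values had a median of 0 for every probe set (largest absolute median 5e-07), so they had also been centred. Centring cancels in differences and removes levels. Depth has no meaning for arrays, and their number limits precision: an exact permutation test of 2 against 2 cannot go below p = 0.333. The 111 control probe sets were left out of tests. The main fit was limma 3.58.1 in R 4.3.3 (lmFit over 4 group means, contrasts.fit, eBayes), with 4 residual and 4.63 prior degrees of freedom. Scripts were tested on simulated data, where the share of false calls was somewhat above the nominal level, so calls close to the threshold carry more doubt than their adjusted p states.

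Members and lists were chosen with earlier results of these data known. Named were genes past the threshold with a name, the 10 highest and 10 lowest annotated genes past it, up to 2 per list, and genes whose probe sets all passed one way. The lists were put together from gene names, because the tables give no descriptions. Where a gene had several probe sets, the one standing for it was taken in the order _at, _a_at, _s_at, _x_at, with ties broken by identifier. Gene names came from the platform annotation and, for 770 of 771 genes, RefSeq's gene list on assembly IWGSC CS RefSeq v2.1. Other members of lists, other probe sets, TaGlu1a, tubb1, tubb2, PR5, GSTZ1, 6-FEH, rbcl, LOC543440, LOC100037541 and probe sets without a gene were named after their values were seen. No sequences or coordinates were used here.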

Additional observations from a re-analysis of the deposited data

Results flagged for a closer look

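The cultivar difference was compared between droughted and watered leaves by the interaction term of the limma fit, and 25 probe sets passed, of which 3 have a gene. The count was 0 with the poly-A covariate, where 3756 had an unadjusted p under 0.05, and 2 without WL711 control replicate 1. The difference of LOC543150 was 2.73 in droughted leaves and -3.97 in watered leaves, a change of 6.70 (SE 0.80, adjusted p = 0.0485). The difference of LOC543248 was 0.71 in droughted leaves and -3.43 in watered leaves, a change of 4.14 (SE 0.24, adjusted p = 0.00170). The difference of LOC543440 was -0.037 in droughted leaves and 2.20 in watered leaves, a change of -2.23 (SE 0.24, adjusted p = 0.0287).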

How the results depend on the processing

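The 6714 calls became 2971 with a minimum absolute difference of 1, 3516 with array weights, 795 with the poly-A covariate and 2965 on the 4 watered arrays alone. Higher calls were then 2137, 2381, 489 and 2052, lower calls 834, 1135, 306 and 913, and annotated genes 64, 67, 21 and 72. Lower calls were 1555 after quantile normalization once more. Leaving out 1 of the 8 arrays gave 2854 to 9509 calls, 1770 to 5295 higher, 985 to 4214 lower and 61 to 148 annotated genes. It gave 1247 to 2048 calls on the drought arrays and 2 to 199 for the difference between waterings. Drought calls were 2714 with the minimum difference and 1676 with the hybridisation control covariate. The difference between waterings passed for 14 without the _x_at, _s_at and _a_at probe sets, and in limma for 0 with the poly-A covariate, where 3756 had an unadjusted p under 0.05. The cause was not tested. Entering replicate number as a block gave 5896 calls, 3791 higher and 2105 lower, of which 5553 were among the 6714. Deviations of same-numbered arrays correlated at -0.093 to 0.11, so these arrays shared little deviation. The labels do not say whether the numbers pair the samples by design. Of 43 genes named by rule and past the threshold, 13 passed in every setting, 24 in every planned one, and 0 changed sign. TPC1, not past it, ran from -0.023 to 0.51. The planned filter on dim probe sets was not run, because centred values hold no brightness, and every count rests on 2 arrays a group.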
